A study of Mus musculus with 35 samples.

Results

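The genes described here are 10 that mark the endothelial cells lining the liver sinusoids: Kdr, Ptprb, Tek, Clec4g, Fcgr2b, Stab2, Lyve1, Ehd3, Oit3 and Sox17. They were taken by symbol from the array's annotation, 10 of 18193 genes with a probe set of their own, and each was read from its single-gene probe set with the highest mean signal. Each of 35 arrays holds liver RNA (left lateral lobe) of 1 BALB/c mouse, taken 6 h after injection into a vein. Treated mice received silica particles of 3 sizes, SP30, SP70 and SP300. The groups are SP30 (10 mg/kg), SP300 (10 mg/kg), SP300 (200 mg/kg), a series of SP70 doses (10, 20 and 40 mg/kg) and a control of deionized water. Each of the 7 groups held 5 mice. The study addressed dose dependence with SP70, and size dependence with the 3 particles compared at 10 mg/kg and again at doses it had found toxic for each, namely 10 mg/kg of SP30, 40 mg/kg of SP70 and 200 mg/kg of SP300.

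The sinusoids are the capillaries of the liver, and their endothelial cells differ from those of other vessels in being perforated by open pores and in clearing waste molecules from the blood through scavenger receptors. Of the genes described, Kdr and Tek encode receptor kinases for vascular endothelial growth factor (VEGF) and the angiopoietins, and Ptprb a phosphatase that acts on them. Clec4g, Fcgr2b, Stab2 and Lyve1 encode receptors for glycoproteins, immune complexes and hyaluronan, Ehd3 a membrane-trafficking ATPase, Oit3 a secreted protein and Sox17 a transcription factor. Kdr, Ptprb, Tek and Sox17 are also made by the endothelium of other vessels, Lyve1 by lymphatic endothelium and some macrophages, and Fcgr2b by B cells and macrophages.

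The values are array intensities on a linear scale, called signals below. Each difference is on the scale of log2(signal + 12.5), treated minus control or as named, with the standard error (SE) of the limma fit and 5 mice per group. A gene passed the test where limma gave it an adjusted p (Benjamini-Hochberg, 12674 genes tested) under 0.05. Values of a gene's second or other probe sets come from a separate limma fit of probe sets, whose adjusted p covers more tests. Folds are ratios of geometric means in which signals under 165, the filter on low values, were raised to it, and a fold is written with at least if any mouse in the lower group lay under it. Different probe sets bind with different strength, so no gene's level is set against another's. All 10 genes passed the filter. In whole liver RNA, fewer endothelial cells and less RNA of these genes per cell cannot be told apart.

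Array medians lay between 148.8 and 180.2. Signals of 11 hepatocyte genes summed to at least 768735 in every mouse, so markers of the labelled tissue were present throughout. A pair of mice stood apart from their groups. The summed signal of the 10 sinusoidal genes was 5232 in replicate 3 of the SP70 40 mg/kg group, where the other 4 mice had 10922 to 13380, and 9922 in replicate 1 of the SP300 200 mg/kg group, where the other 4 had 19399 to 22253. The sum over 30 general endothelial genes was also the lowest of its group in these mice, at 13705 against 18455 to 22757, and at 15649 against 24824 to 28206. Sums over 13 Kupffer cell genes were the highest of their groups there by a narrow margin, at 10557 against 6215 to 10432, and at 10643 against 8864 to 10370. In both groups 10 of these 13 genes had means under the filter. Stellate cell and fibroblast sums (27520 and 36974.5) and leukocyte and platelet sums (29976 and 12902) were the lowest of their groups in both mice. The hepatocyte sum was the lowest of its group in the first mouse (773392) and the highest in the second (876773). Counts of the 10 genes against control, and between the groups given a dose found toxic, are therefore also given without these mice. Other counts, those of the other gene lists among them, include these mice. They stayed in every value that is not named as without them.

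The promoters of 6 of the 10 genes were in the RefSeq table for mouse genome build GRCm38.p6. Of these, 4 are shown: those of 2 receptor kinases, 1 lectin and 1 trafficking protein. All 6 genes, with Fcgr2b and Stab2 not shown, fell after SP30 and after SP70 at 40 mg/kg. Each stretch runs from 250 bases before to 50 bases after the gene's start and is written 5′ to 3′ on the gene's own strand. Kdr lies at chr5:75978406-75978705, minus strand, Tek at chr4:94739039-94739338, plus strand, Clec4g at chr8:3720602-3720901, minus strand and Ehd3 at chr17:73804591-73804890, plus strand. Capitals mark matches, on either strand, to short motifs of 5 families of transcription factors (ETS, GATA, SOX, KLF and NF-kB), spelled out after the sequences.
Kdr: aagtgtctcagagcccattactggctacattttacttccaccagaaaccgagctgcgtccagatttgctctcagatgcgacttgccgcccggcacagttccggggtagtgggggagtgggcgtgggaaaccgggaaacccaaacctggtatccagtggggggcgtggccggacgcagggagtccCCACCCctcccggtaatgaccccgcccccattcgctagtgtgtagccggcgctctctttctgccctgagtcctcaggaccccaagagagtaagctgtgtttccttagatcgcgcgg
Tek: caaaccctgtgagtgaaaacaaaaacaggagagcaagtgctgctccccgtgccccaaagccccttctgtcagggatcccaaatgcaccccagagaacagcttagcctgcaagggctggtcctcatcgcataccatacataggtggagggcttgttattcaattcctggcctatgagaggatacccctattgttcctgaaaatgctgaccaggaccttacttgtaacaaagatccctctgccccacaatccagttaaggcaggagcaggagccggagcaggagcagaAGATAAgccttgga
Clec4g: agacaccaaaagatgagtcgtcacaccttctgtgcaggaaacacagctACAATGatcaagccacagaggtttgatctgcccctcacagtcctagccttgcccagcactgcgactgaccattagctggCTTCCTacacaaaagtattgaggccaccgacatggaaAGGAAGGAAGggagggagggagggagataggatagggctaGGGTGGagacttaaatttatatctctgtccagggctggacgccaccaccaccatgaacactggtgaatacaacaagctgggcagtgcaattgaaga
Ehd3: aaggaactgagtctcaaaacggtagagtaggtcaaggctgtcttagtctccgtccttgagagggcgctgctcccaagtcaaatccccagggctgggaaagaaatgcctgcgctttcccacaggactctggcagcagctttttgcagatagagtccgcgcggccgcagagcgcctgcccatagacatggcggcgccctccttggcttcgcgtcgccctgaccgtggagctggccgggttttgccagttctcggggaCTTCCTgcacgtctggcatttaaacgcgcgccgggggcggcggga
The Kdr stretch holds 1 match, to the KLF motif CCACCC. The Tek stretch holds 1 match, to the GATA motif AGATAA. The Clec4g stretch holds 3 matches to the ETS motif AGGAAG, of which 2 overlap, and it is the one window with the SOX motif ACAATG. It also holds 1 KLF match, and the Ehd3 stretch holds 1 ETS match. Over all 6 promoters, 3 held the ETS motif and 3 the KLF motif, against 35.35% and 31.48% of 32851 mouse promoters of this length. The GATA and SOX motifs were found in 1 of the 6 each, against 11.18% and 12.57% of all promoters, and the NF-kB motif in 0 of 6, against 1.629%. No motif was therefore shared by all 6 windows. A match describes letters only and was not tested as a binding site.

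**Figure D1:**
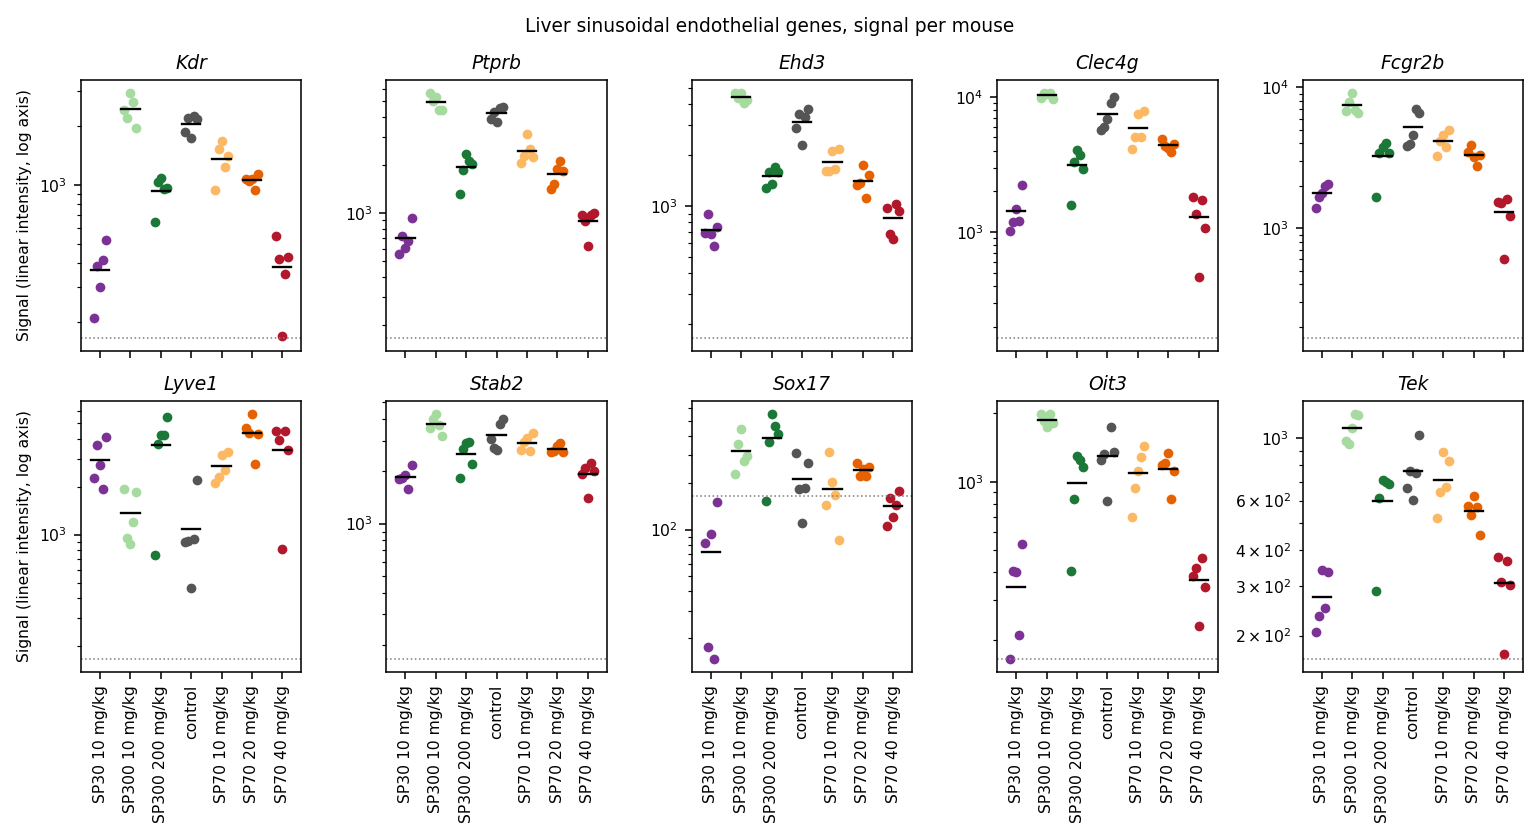
Signal of each gene in each mouse (linear intensity on a log axis). Points are mice, bars the means of 5 mice and the dotted line the filter of 165. For 8 genes, Lyve1 and Sox17 being the others, the highest mean belongs to SP300 at 10 mg/kg and the lowest to SP30 or to SP70 at 40 mg/kg. Lyve1 has its lowest mean in control mice.

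Among the receptors of growth factor signalling, Kdr, the main VEGF receptor of endothelium, was low in every group except SP300 at 10 mg/kg. Its signals were 209, 384, 303, 412 and 526 after SP30 at 10 mg/kg, 2418, 2194, 2952, 2655 and 1955 after SP300 at 10 mg/kg and 644, 1031, 1084, 952 and 957 after SP300 at 200 mg/kg. Along the SP70 series they were 1856, 2184, 1738, 2234 and 2165 in control mice, 945, 1519, 1679, 1239 and 1404 at 10 mg/kg, 1066, 1048, 1069, 944 and 1136 at 20 mg/kg and 546, 418, 169, 351 and 429 at 40 mg/kg. No mouse given SP30, SP70 or the higher dose of SP300 reached the lowest control mouse, whereas the mice given SP300 at 10 mg/kg overlapped the controls. The difference against control was -2.49 ± 0.21 after SP30 (a fall of 5.78-fold, adjusted p = 6.64e-12) and -1.13 ± 0.21 after SP300 at 200 mg/kg (2.20-fold, adjusted p = 7.75e-05). After SP70 it was -0.60 ± 0.21 at 10 mg/kg (adjusted p = 0.0427), -0.94 ± 0.21 at 20 mg/kg (adjusted p = 0.000471) and -2.46 ± 0.21 at 40 mg/kg (adjusted p = 1.3e-11). The call at 10 mg/kg was weak: it was lost without any 1 of 7 mice (control replicates 1, 2, 4 and 5, and SP70 replicates 1, 4 and 5), with an adjusted p from 0.0510 to 0.147, and with no filter on low values (0.0605).

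Tek, the angiopoietin receptor also called Tie2, fell in fewer groups. Its signals were 206, 234, 341, 251 and 335 after SP30, 972, 955, 1086, 1219 and 1203 after SP300 at 10 mg/kg and 288, 614, 711, 695 and 685 after SP300 at 200 mg/kg. In the SP70 series they were 664, 765, 602, 753 and 1022 in control mice, 519, 645, 888, 669.7 and 825 at 10 mg/kg, 573, 536, 621, 572 and 452 at 20 mg/kg and 379.6, 309.7, 173, 366 and 302 at 40 mg/kg. Only after SP30 and after SP70 at 40 mg/kg did all 5 mice lie below all control mice. The differences there were -1.44 ± 0.20 (2.79-fold lower, adjusted p = 3.71e-07) and -1.30 ± 0.20 (2.54-fold lower, adjusted p = 2.55e-06). At 20 mg/kg of SP70 the difference of -0.44 ± 0.20 did not pass (adjusted p = 0.0843), but it passed under quantile normalization (adjusted p = 0.0321), with arrays centred on their medians (0.0386) and in a fit of only these groups (0.0238). After SP300 at 200 mg/kg it was -0.39 ± 0.20 (adjusted p = 0.159), or -0.15 without the pair of mice that stood apart (adjusted p = 0.535).

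Ptprb, the endothelial phosphatase also called VE-PTP that holds Tek and Kdr signalling down, fell in the same groups as Kdr. Its signals were 555, 715, 607, 666 and 929 after SP30, 5682, 5043, 5333, 4407 and 4436 after SP300 at 10 mg/kg and 1326, 1852, 2332, 2132 and 2037 after SP300 at 200 mg/kg. Along the SP70 doses they were 3890.4, 4284, 3712, 4557 and 4592 in control mice, 2062, 2277, 3113, 2535 and 2231 at 10 mg/kg, 1421, 1517, 1884, 2128 and 1829 at 20 mg/kg and 975, 896, 619.8, 980.0 and 996 at 40 mg/kg. At each dose of SP70 all mice lay below every control mouse, and at 40 mg/kg also below every mouse of the lower doses. Against control, Ptprb differed by -2.59 ± 0.15 after SP30 (6.13-fold lower), by -1.13 ± 0.15 after SP300 at 200 mg/kg, and by -0.79 ± 0.15, -1.27 ± 0.15 and -2.24 ± 0.15 at 10, 20 and 40 mg/kg of SP70. The adjusted p was 0.00011 at 10 mg/kg of SP70 and smaller in the other 4. A second probe set of Ptprb gave -3.11 ± 0.18 after SP30 and -2.95 ± 0.18 after SP70 at 40 mg/kg.

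Of the receptors that bind glycans, immune complexes and hyaluronan, Clec4g, a C-type lectin of sinusoidal endothelium also called LSECtin, fell furthest. Its signals were 1015, 1199, 1489, 1219 and 2231 after SP30, 9774, 10728, 10468, 10600.1 and 9655 after SP300 at 10 mg/kg and 1590.1, 3283, 4059.9, 3694 and 2935 after SP300 at 200 mg/kg. With SP70 they were 5657, 5997, 6870.1, 8951 and 10029 in control mice, 4088, 5078, 7509, 5006 and 7866 at 10 mg/kg, 4905, 4363, 4184, 3933 and 4452 at 20 mg/kg and 1808, 1373, 467, 1727 and 1077 at 40 mg/kg. The mice given 10 mg/kg of SP70 overlapped the controls, and those given 20 or 40 mg/kg did not. At 40 mg/kg of SP70 Clec4g was 6.27-fold lower (-2.63 ± 0.26, adjusted p = 2.88e-10), after SP30 5.32-fold lower (-2.40 ± 0.26, adjusted p = 1.5e-09) and after SP300 at 200 mg/kg 2.47-fold lower (-1.30 ± 0.26, adjusted p = 0.000181). At 20 mg/kg of SP70 it differed by -0.75 ± 0.26 (adjusted p = 0.0198), a call lost without control replicate 4 (adjusted p = 0.0530) or control replicate 5 (0.0637). Its other probe set lay under the filter.

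Fcgr2b, the inhibitory receptor for immunoglobulin G that sinusoidal endothelium uses to clear small immune complexes, had signals of 1531, 1505, 603, 1618 and 1229 at 40 mg/kg of SP70, against 3840.0, 3962, 4631, 7051 and 6623 in control mice. They were 1401, 1653, 1778, 1987 and 2059.7 after SP30 and 1669, 3428, 3757, 4018 and 3414 after SP300 at 200 mg/kg, and ran from 3275 to 5023 at 10 mg/kg of SP70, from 2746 to 3911 at 20 mg/kg and from 6586 to 9204 after SP300 at 10 mg/kg. The groups given SP30 or 40 mg/kg of SP70 lay clear of the controls. Fcgr2b differed from control by -2.03 ± 0.21 at 40 mg/kg of SP70 (4.12-fold lower, adjusted p = 1.47e-09) and by -1.52 ± 0.21 after SP30 (2.87-fold lower, adjusted p = 3.59e-07). The weaker falls were -0.61 ± 0.21 at 20 mg/kg (adjusted p = 0.0223) and -0.69 ± 0.21 after SP300 at 200 mg/kg (adjusted p = 0.0128). The first was lost without control replicate 4, control replicate 5 or SP70 20 mg/kg replicate 4 (adjusted p from 0.0618 to 0.0847) and with a gene's probe sets averaged (0.0998), and the second without control replicate 4 (0.0526) or SP300 200 mg/kg replicate 1 (0.0752). The suffix of the probe set used marks probes that can match transcripts of more than 1 gene, so related receptors may add to its signal. The other 3 probe sets above the filter differed by -1.25 ± 0.24, -1.60 ± 0.23 and -1.65 ± 0.24 at 40 mg/kg of SP70, and all 3 passed there and after SP30. None of the 3 passed at 20 mg/kg of SP70 (adjusted p = 0.641, 0.0635 and 0.136). In the same order they differed by -0.37 ± 0.24, -0.76 ± 0.23 and -0.58 ± 0.24 after SP300 at 200 mg/kg, where only the second passed (adjusted p = 0.303, 0.014 and 0.0756). After SP300 at 10 mg/kg the first was higher (0.93 ± 0.24, adjusted p = 0.0452). Ms4a1, the B cell gene for CD20, had a mean signal under the filter in all 7 groups.

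Stab2, the hyaluronan scavenger receptor, changed less. Its signals ran from 1590.3 to 2167 after SP30, from 3210.4 to 4319 after SP300 at 10 mg/kg and from 1823 to 2955 after SP300 at 200 mg/kg. Under SP70 they ran from 2666 to 4024 in control mice, from 2623 to 3331 at 10 mg/kg, from 2599 to 2904 at 20 mg/kg and from 1401 to 2245 at 40 mg/kg. After SP30 and after SP70 at 40 mg/kg no mouse reached the lowest control. There it fell 1.73-fold (-0.79 ± 0.13, adjusted p = 3.7e-06) and 1.68-fold (-0.74 ± 0.13, adjusted p = 1.11e-05). After SP300 at 200 mg/kg the difference of -0.37 ± 0.13 (adjusted p = 0.0246) was lost without control replicate 4 or 5 or SP300 replicate 1 or 5 (adjusted p from 0.0656 to 0.115), with arrays centred (0.0860) and in a fit of only these groups (0.0817). At 20 mg/kg of SP70 it was at -0.24 ± 0.13 (adjusted p = 0.13) and passed only with arrays centred (0.0498).

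Lyve1, a hyaluronan receptor, moved the other way. Its signals were 2282, 3668, 2747, 1927 and 4116 after SP30, 1927, 956, 878, 1198 and 1849 after SP300 at 10 mg/kg and 749, 3724, 4213, 4201 and 5439.8 after SP300 at 200 mg/kg. In the SP70 series they were 896, 909, 462, 944 and 2210.0 in control mice, 2119.8, 2302, 3169, 2539 and 3279 at 10 mg/kg, 4678, 4351, 5757, 2793 and 4291 at 20 mg/kg and 4479, 3915, 814, 4459 and 3413 at 40 mg/kg. At 20 mg/kg of SP70 every mouse lay above every control mouse, and the mice given SP300 at 10 mg/kg lay within the range of the controls. The groups given SP30 or 10 mg/kg of SP70 overlapped control replicate 5 alone, and those given 40 mg/kg of SP70 or 200 mg/kg of SP300 overlapped through 1 low mouse each, replicate 3 and replicate 1. Lyve1 was 2.97-fold higher after SP30 (1.56 ± 0.42, adjusted p = 0.00221) and 3.21-fold higher after SP300 at 200 mg/kg (1.67 ± 0.42, adjusted p = 0.0022). After SP70 it rose 2.77-fold at 10 mg/kg (1.46 ± 0.42, adjusted p = 0.0114), 4.47-fold at 20 mg/kg (2.14 ± 0.42, adjusted p = 8.39e-05) and 3.08-fold at 40 mg/kg (1.61 ± 0.42, adjusted p = 0.00183). Without control replicate 3 the call at 10 mg/kg of SP70 was lost (adjusted p = 0.0538). Its second probe set rose in the same 5 comparisons, by 1.45 ± 0.31 after SP30, 1.52 ± 0.31 after SP300 at 200 mg/kg and 1.98 ± 0.31 at 20 mg/kg of SP70. Of 4 lymphatic genes tested, Prox1, a regulator of lymphatic identity that hepatocytes also make, rose by 1.30 ± 0.21 at 20 mg/kg of SP70 (adjusted p = 7.64e-06), and Mmrn1 and Pdpn passed in 0 of the 6 comparisons with control. However, the mean signal of Mmrn1 lay under the filter in every group, so a change in it was hardly measurable. That of Pdpn lay under the filter after SP300 at 200 mg/kg. Reln, which stellate cells make as well, fell by 0.50 on the log2 scale at 40 mg/kg of SP70. Their part in the rise of Lyve1 was not tested.

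Ehd3, which drives membrane recycling and in liver marks sinusoidal endothelium, fell in the same groups as Ptprb. Its signals were 691, 893, 678, 576 and 751 after SP30, 4644, 4333, 4671, 4054 and 4248 after SP300 at 10 mg/kg and 1276, 1584, 1346, 1695 and 1591 after SP300 at 200 mg/kg. Over the SP70 doses they were 2881, 3469.5, 2277, 3353 and 3711 in control mice, 1599, 1604, 2101, 1656 and 2153 at 10 mg/kg, 1334, 1357, 1744, 1105 and 1516 at 20 mg/kg and 970.5, 683, 633, 1031 and 938 at 40 mg/kg. No mouse of any group other than SP300 at 10 mg/kg reached the lowest control mouse, and all 5 mice of that group lay above the highest. Ehd3 differed by -2.10 ± 0.14 after SP30 and -1.05 ± 0.14 after SP300 at 200 mg/kg, and by -0.77 ± 0.14, -1.14 ± 0.14 and -1.87 ± 0.14 at 10, 20 and 40 mg/kg of SP70, each passing. After SP300 at 10 mg/kg it was 1.42-fold higher, 0.50 ± 0.14, which did not pass (adjusted p = 0.0729) except without control replicate 5, where its adjusted p lay just under the threshold. Its second probe set gave -1.82 ± 0.19 after SP30 and -1.64 ± 0.19 at 40 mg/kg of SP70, but -0.50 ± 0.19 at 10 mg/kg (adjusted p = 0.0779).

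Oit3, a secreted protein of sinusoidal endothelium, passed the test in no comparison with control except SP30 and, of the SP70 doses, 40 mg/kg. Its signals were 386, 418, 231, 461 and 345 at 40 mg/kg of SP70, against 1250.3, 1327, 822, 1738 and 1359 in control mice. They were 166, 402, 401, 211 and 530.0 after SP30 and ran from 1750.4 to 1999.6 after SP300 at 10 mg/kg, from 404 to 1292 at 200 mg/kg, from 702 to 1433 at 10 mg/kg of SP70 and from 837 to 1343 at 20 mg/kg. The 10 mice given SP30 or the highest dose of SP70 all lay below the lowest control. Oit3 was 3.52-fold lower at 40 mg/kg of SP70 (-1.78 ± 0.27, adjusted p = 1.13e-06) and 4.04-fold lower after SP30 (-1.97 ± 0.27, adjusted p = 1.48e-07). At 20 mg/kg of SP70 it differed by -0.17 ± 0.27 (adjusted p = 0.66), and after SP300 at 200 mg/kg by -0.46 ± 0.27 (adjusted p = 0.202), or by -0.17 without the pair of mice that stood apart (adjusted p = 0.640).

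Sox17, an endothelial transcription factor, lay near the filter, and its probe sets disagreed. Its signals were 81.5, 17.6, 93.4, 14.7 and 150.0 after SP30, 228, 355, 445, 277 and 297 after SP300 at 10 mg/kg and 153, 363, 557, 465 and 412 after SP300 at 200 mg/kg. In the SP70 series they were 309, 181, 111, 184 and 267 in control mice, 143, 314, 202, 166 and 85.2 at 10 mg/kg, 267, 221, 245, 222 and 253 at 20 mg/kg and 105, 161, 121, 143 and 176 at 40 mg/kg. All 5 mice given SP30 lay under the filter, and the groups overlapped in every comparison with control. After SP30 Sox17 was at least 1.30-fold lower, with a fitted difference of -1.66 ± 0.38 that depends on the pseudocount (adjusted p = 0.000386), and it passed in no other comparison with control. Its second probe set gave -1.07 ± 0.31 after SP30 (adjusted p = 0.00577), but -0.41 ± 0.31 after SP300 at 200 mg/kg, where the probe set used gave 0.82 ± 0.38 (adjusted p = 0.0996). The higher value passed without SP300 200 mg/kg replicate 1 (1.11, adjusted p = 0.0238) and with a pseudocount of 50 (0.0496). The suffix of the probe set used marks probes that can also match other transcripts, which may add to its signal.

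**Figure D2:**
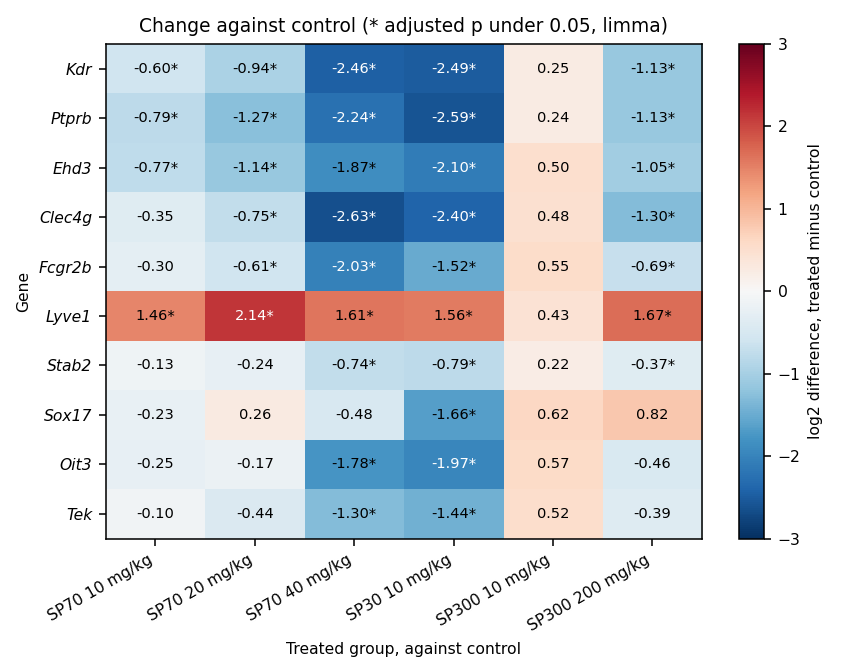
Difference of each gene (rows) in each treated group against control (columns), on the log2(signal + 12.5) scale, blue lower and red higher than control. Asterisks mark an adjusted p under 0.05 from limma. The columns of SP70 at 40 mg/kg and SP30 are the darkest blue, Lyve1 is red in all 6 columns, and SP300 at 10 mg/kg carries no asterisk.

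With increasing dose of SP70, more of the 10 genes fell below control. At 10 mg/kg 3 were lower and 1 higher, where 5.70% of all genes tested were lower and 12.5% higher. At 20 mg/kg 5 were lower and 1 higher, against 20.9% and 18.8% of all genes. At 40 mg/kg 8 were lower and 1 higher, against 28.8% and 15.6%. The median difference of the 10 genes was -0.27 at 10 mg/kg, -0.53 at 20 mg/kg and -1.83 at 40 mg/kg, and that of all genes 0.01, -0.03 and -0.09. The comparisons with control all share the same control mice. Without the pair of mice that stood apart, 8 were still lower and 1 higher at 40 mg/kg. Leaving out 1 mouse at a time gave 3 or 4 genes past the test at 10 mg/kg, 4 to 6 at 20 mg/kg and 9 at 40 mg/kg.

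The doses of SP70 were also compared with each other. The steps from 10 to 20 and from 20 to 40 mg/kg differ in width, and a difference between the steps was not tested. The median difference of the 10 genes was -0.33 over the first and -0.92 over the second, and that of all genes -0.054 and -0.095. From the direct comparisons, 8 genes were lower at 40 than at 20 mg/kg (8.69% of all genes were) and 8 were lower at 40 than at 10 mg/kg (25.3%), Lyve1 and Sox17 being the exceptions in both. Between 20 and 10 mg/kg only Ptprb was lower (-0.47 ± 0.15, adjusted p = 0.0218), where 12.0% of all genes were, and this call was lost without SP70 10 mg/kg replicate 3 or SP70 20 mg/kg replicate 1 or 2 (adjusted p from 0.0631 to 0.0930). Without SP70 20 mg/kg replicate 3, Ehd3 passed as well (-0.45, adjusted p = 0.0318). Between 40 and 20 mg/kg Clec4g fell by 1.89 and Oit3 by 1.61 on the log2 scale (adjusted p = 7.84e-06 and 9.85e-05), the widest steps of the 10 genes. Stab2 differed there by -0.50 ± 0.13 (adjusted p = 0.00914), a call lost without SP70 40 mg/kg replicate 3 (0.0518). Lyve1 differed by -0.53 ± 0.42, with a 95% interval of -1.38 to 0.31 (adjusted p = 0.451), and by -0.076 without the pair of mice that stood apart (adjusted p = 0.915). Fitted as a straight line over the dose with control as 0, 8 genes fell and 1, Lyve1, rose (30.4% and 14.8% of all genes), from -0.0668 ± 0.00618 per mg/kg for Clec4g to -0.0187 ± 0.00305 for Stab2. The slope of Sox17 was -0.00967 ± 0.009 (adjusted p = 0.404).

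**Figure D3:**
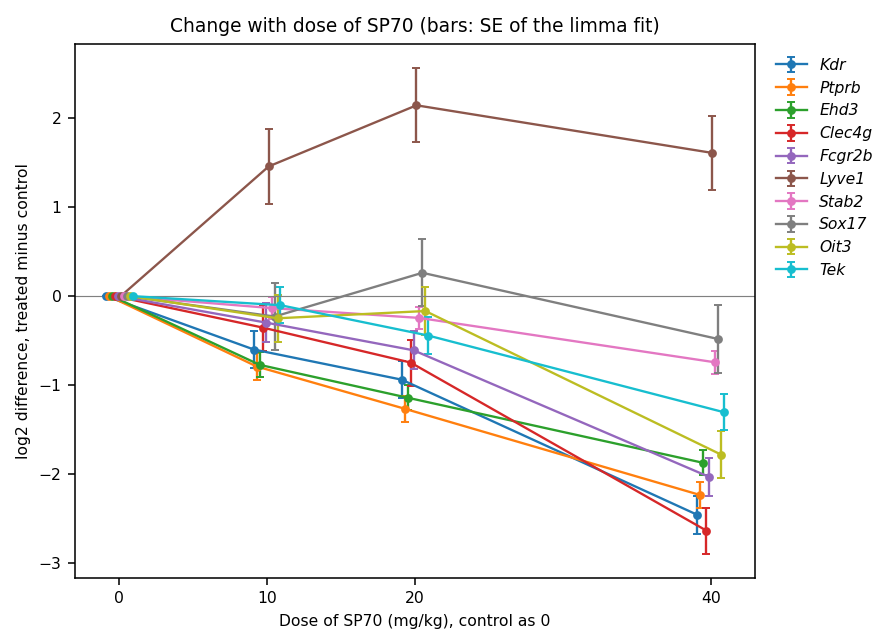
Dose of SP70 in mg/kg (horizontal, control at 0) and difference from control on the log2(signal + 12.5) scale (vertical). Points are fitted differences of 5 mice against 5, bars their SE, and points are shifted sideways for legibility. Clec4g reaches -2.63 and Kdr -2.46 at 40 mg/kg, while Lyve1 lies at 2.14 at 20 mg/kg and at 1.61 at 40 mg/kg, or at 2.07 there without the pair of mice that stood apart.

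At an equal dose of 10 mg/kg, SP30 gave the lowest mean signal of the 3 particles for every one of the 10 genes except Lyve1, for which it gave the highest. After SP30, 9 genes were lower and 1, Lyve1, higher than control, where 31.3% of all genes were lower and 18.0% higher. After SP300, 0 of the 10 passed (1.17% of all genes did). With the probe sets used, all 10 differences were above 0, between 0.22 for Stab2 and 0.62 for Sox17. The direction depended on the probe set for Sox17 and Lyve1, whose second probe sets were at -0.57 ± 0.31 and -0.03 ± 0.31 there. Of all genes, 1779 had an unadjusted p under 0.05. The unadjusted p was 0.0011 for Ehd3, 0.0146 for Fcgr2b, 0.0152 for Tek and 0.0408 for Oit3. The median difference was -1.82 after SP30 and 0.49 after SP300, and that of all genes -0.12 and 0.06.

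Set against each other at 10 mg/kg, SP30 left 9 genes lower than SP70 did (23.6% of all genes), with Lyve1 not passing (0.10 ± 0.42, 95% interval -0.75 to 0.95). Kdr differed by -1.89 ± 0.21, Clec4g by -2.05 ± 0.26 and Ptprb by -1.80 ± 0.15. The call of Sox17 was lost in a fit of only these groups (adjusted p = 0.0652). It also depends on the probe set used, on which all 5 mice given SP30 lay under the filter. Against control, the second probe set of Sox17 was at -1.07 ± 0.31 after SP30, -0.89 ± 0.31 after SP70 and -0.57 ± 0.31 after SP300, each at 10 mg/kg. Against SP300, SP30 left 9 genes lower and Lyve1 higher (35.6% and 16.2%), and for all 10 genes the mice did not overlap (35.7% of all genes). Clec4g was 7.44-fold lower, Ptprb 7.25-fold and Kdr 6.88-fold. The rise of Lyve1 there (1.13 ± 0.42, adjusted p = 0.0233) was lost without SP30 replicate 2 or 5 or SP300 replicate 2 or 3 (adjusted p from 0.0548 to 0.0656). SP70 left 8 genes lower than SP300 (10.2%), all but Lyve1 and Sox17, from -1.27 ± 0.14 for Ehd3 to -0.36 ± 0.13 for Stab2. Lyve1 differed by 1.03 ± 0.42 (adjusted p = 0.0781), but passed as higher with a gene's probe sets averaged (1.23, adjusted p = 0.0131) and in a fit of only these groups (1.03, adjusted p = 0.00374). Of the 8, Kdr, Ptprb, Ehd3 and Fcgr2b passed without any 1 mouse left out. Without SP70 replicate 1, Clec4g, Stab2, Oit3 and Tek missed the threshold (adjusted p = 0.0642, 0.101, 0.0933 and 0.0903). Oit3 and Tek also missed it without SP70 replicate 2 (0.0543 and 0.0529), Tek without SP70 replicate 4 or SP300 replicate 4 or 5 (0.0507 to 0.0578), and Stab2 without SP70 replicate 2 or 4 or SP300 replicate 1, 2, 3 or 4 (0.0511 to 0.122). Stab2 missed it with no filter (0.0559) and with arrays centred (0.0558) as well.

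At the doses found toxic, no gene passed the test between SP30 and SP70, and both gave lower signals than SP300. Between SP30 at 10 mg/kg and SP70 at 40 mg/kg, 0 of 10 genes passed (5.70% of all genes did), with an unadjusted p of 0.0193 for Ptprb, 0.0218 for Fcgr2b and 0.00347 for Sox17. Kdr differed by -0.03 ± 0.21 (95% interval -0.46 to 0.40), Stab2 by -0.04 ± 0.13 (-0.30 to 0.22) and Clec4g by 0.23 ± 0.26 (-0.29 to 0.76). Ptprb was at -0.36 ± 0.15 (adjusted p = 0.155) and passed once the pair of mice that stood apart was left out (-0.48, adjusted p = 0.0258). For Sox17 all 5 mice given SP30 and 4 of 5 given SP70 lay under the filter, so its difference was not measurable here, although its adjusted p of 0.0573 passed without SP30 replicate 1, 3 or 5 (0.0121 to 0.0413) and with a pseudocount of 1 (0.0420).

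Against SP300 at 200 mg/kg, 9 genes were lower after SP30 (17.5% of all genes) and 9 after SP70 at 40 mg/kg (10.4%), Lyve1 being the exception in both. The counts were the same without the pair of mice. Ptprb was 2.78-fold lower after SP30 (-1.46 ± 0.15, adjusted p = 2.68e-09) and 2.16-fold lower after SP70 (-1.10 ± 0.15, adjusted p = 2.25e-06). Lyve1 differed by -0.11 ± 0.42 (95% interval -0.96 to 0.74) and -0.06 ± 0.42 (-0.91 to 0.79). Without the pair these values were -0.62 (adjusted p = 0.107) and -0.11 (0.867). The calls of Stab2 were weak: the one for SP30 (-0.41 ± 0.13) was lost without SP300 replicate 4 (adjusted p = 0.0507), and the one for SP70 (-0.37 ± 0.13, adjusted p = 0.0436) without SP70 replicate 1, 3 or 5 or SP300 replicate 2, 3 or 4 (0.0592 to 0.168), with no filter (0.0570), under quantile normalization (0.0555) and in a fit of only these groups (0.123). Sox17 after SP70 (-1.30 ± 0.38) did not pass with a gene's probe sets averaged (0.0521). Both calls of Sox17 depend on the probe set used. Against control, its second probe set was at -1.07 ± 0.31 after SP30, -0.69 ± 0.31 after SP70 at 40 mg/kg and -0.41 ± 0.31 after SP300 at 200 mg/kg.

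SP300 itself changed these genes with dose. At 200 mg/kg 6 genes were lower and 1 higher than control (18.0% and 12.6% of all genes), with a median of -0.58, and without the pair of mice 5 were lower and 2 higher, Stab2 no longer passing (adjusted p = 0.0763) and Sox17 passing as higher (1.11, adjusted p = 0.0253). Compared with 10 mg/kg of the same particle, 8 were lower and Lyve1 was higher at 200 mg/kg (22.4% and 9.40%), while Sox17 differed by 0.20 ± 0.38. Clec4g was 3.45-fold lower (-1.78 ± 0.26), Ehd3 2.94-fold (-1.55 ± 0.14) and Ptprb 2.61-fold (-1.38 ± 0.15). The higher Lyve1 (1.24 ± 0.42, adjusted p = 0.0211) was lost without SP300 10 mg/kg replicate 2 or 3 or SP300 200 mg/kg replicate 3, 4 or 5 (adjusted p from 0.0541 to 0.0736). Without the pair of mice that stood apart, it was at 1.74 and passed (adjusted p = 1.39e-05).

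Ordered by mean signal over the 7 groups, SP30 at 10 mg/kg was lowest for 7 genes, SP70 at 40 mg/kg for 2, Clec4g and Fcgr2b, and control for Lyve1. SP300 at 10 mg/kg was highest for 8 genes, SP70 at 20 mg/kg for Lyve1 and SP300 at 200 mg/kg for Sox17. The second probe set of Sox17 had a lower mean after SP300 at 200 mg/kg than in control mice (210.8 against 273.5). For Kdr, neighbours in this order differed past the test only between SP70 (40 mg/kg) and SP300 (200 mg/kg) and between SP70 at 10 mg/kg and control. For Ptprb and Ehd3 they differed between SP70 at 40 and 20 mg/kg and between SP70 at 10 mg/kg and control. For Tek the one step past the test lay between SP70 at 40 and 20 mg/kg, for Clec4g and Fcgr2b between SP30 and SP300 at 200 mg/kg, and for Stab2 and Oit3 between SP70 (40 mg/kg) and SP300 (200 mg/kg). Neighbours did not differ past the test anywhere for Lyve1 and Sox17.

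Across the 35 arrays, 8 of the genes followed one another closely. Among Kdr, Ptprb, Tek, Clec4g, Fcgr2b, Stab2, Ehd3 and Oit3 the 28 pairwise correlations (Pearson's r of log2 values) ran from 0.872 to 0.974. Sox17 correlated with these 8 at 0.527 to 0.680, and Lyve1 with the other 9 genes at -0.435 to 0.038. The arrays share the 7 treatments, which all genes follow, so these values describe the pattern and carry no test. Tested genes closest to the mean of the 10 standardised genes were Gpihbp1 (r = 0.978), which anchors lipoprotein lipase in capillaries, the water channel Aqp1 (0.977), Cyp4b1 (0.967), Plxnc1 (0.960), the coagulation factor F8 (0.953), Calcrl (0.953), the mannose receptor Mrc1 (0.949), Fam167b (0.945), Gpr182 (0.941) and Bmp2 (0.936). Their differences at 40 mg/kg of SP70 included -1.64 ± 0.28 for Gpihbp1, -1.74 ± 0.19 for Aqp1 and -2.14 ± 0.28 for Cyp4b1.

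Single genes had other nearest patterns. Kdr was closest to Clec4g (r = 0.969), Ptprb (0.967) and Aqp1 (0.965), and Clec4g to Fcgr2b (0.974), Mrc1 (0.973) and Aqp1 (0.970). Lyve1 was closest to Fabp4 (0.927), a fatty acid binding protein of capillary endothelium and fat cells, to Plagl1 (0.882), a zinc finger factor, and to Ifitm1 (0.853), an interferon-induced membrane protein. Fabp4 rose by 0.66 ± 0.26 after SP30, 0.95 ± 0.26 after SP300 at 200 mg/kg, and 1.18 ± 0.26 and 0.69 ± 0.26 at 20 and 40 mg/kg of SP70, and was at 0.61 ± 0.26 at 10 mg/kg (adjusted p = 0.1). Sox17 was closest to Cavin2 (0.828), Pxmp4 (0.822) and Fgd5 (0.817).

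Other genes of sinusoidal endothelium fell too. Of 21, 13 were lower after SP30 (31.3% of all genes), 0 after 10 mg/kg of SP300 and 10 after 200 mg/kg of it (18.0%), and 1, 7 and 13 at 10, 20 and 40 mg/kg of SP70 (5.70%, 20.9% and 28.8%), with 0 higher in any of these. At 40 mg/kg of SP70 their median was -1.15. The 5 with the smallest adjusted p there were Mrc1 (-2.73 ± 0.24), Bmp2, a factor by which endothelium sets hepcidin in hepatocytes (-2.19 ± 0.21), the transcription factor Maf (-1.86 ± 0.20), Ntn4 (at least 3.69-fold lower, its treated mean under the filter) and the DNase Dnase1l3 (-1.78 ± 0.21). Bmp6, another endothelial regulator of hepcidin, was at -0.10 ± 0.26 (adjusted p = 0.795). The Wnt ligand Wnt2 fell (-0.69 ± 0.23, adjusted p = 0.0159), whereas Gata4, a regulator of sinusoidal identity, was at -0.14 ± 0.19 (adjusted p = 0.581) and Rspo3, an enhancer of Wnt signalling, at 0.14 ± 0.22 (adjusted p = 0.626). Mean signals of Wnt9b lay under the filter in all 7 groups.

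Of 30 general endothelial genes, 11 were lower and 5 higher at 40 mg/kg of SP70, where 28.8% of all genes were lower and 15.6% higher. After SP30, 13 were lower and 2 higher (31.3% and 18.0% of all genes), and after SP300 at 200 mg/kg 3 were lower and 3 higher (18.0% and 12.6%). Their medians were -0.27, -0.35 and 0.02. The smallest adjusted p at 40 mg/kg of SP70 belonged to Eng, the co-receptor endoglin (-1.46 ± 0.13), then to Calcrl (-1.08 ± 0.16), Mmrn2 (-1.27 ± 0.20), Gpihbp1 and the transcription factor Erg (at least 2.03-fold lower, its treated mean under the filter). Cdh5, the junction protein VE-cadherin that all endothelium makes, was not lower: it was at 0.53 ± 0.24 at 40 mg/kg (adjusted p = 0.0734) and at 0.42 ± 0.24 after SP30 (adjusted p = 0.157), and it rose by 0.83 ± 0.24 after SP300 at 200 mg/kg (adjusted p = 0.00823). Pecam1, the adhesion molecule CD31, was at -0.74 ± 0.44 and -0.96 ± 0.44 at 40 mg/kg of SP70 and after SP30, neither passing (adjusted p = 0.173 and 0.0663). The differences between these genes and the 10 described here were not tested.

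**Figure D4:**
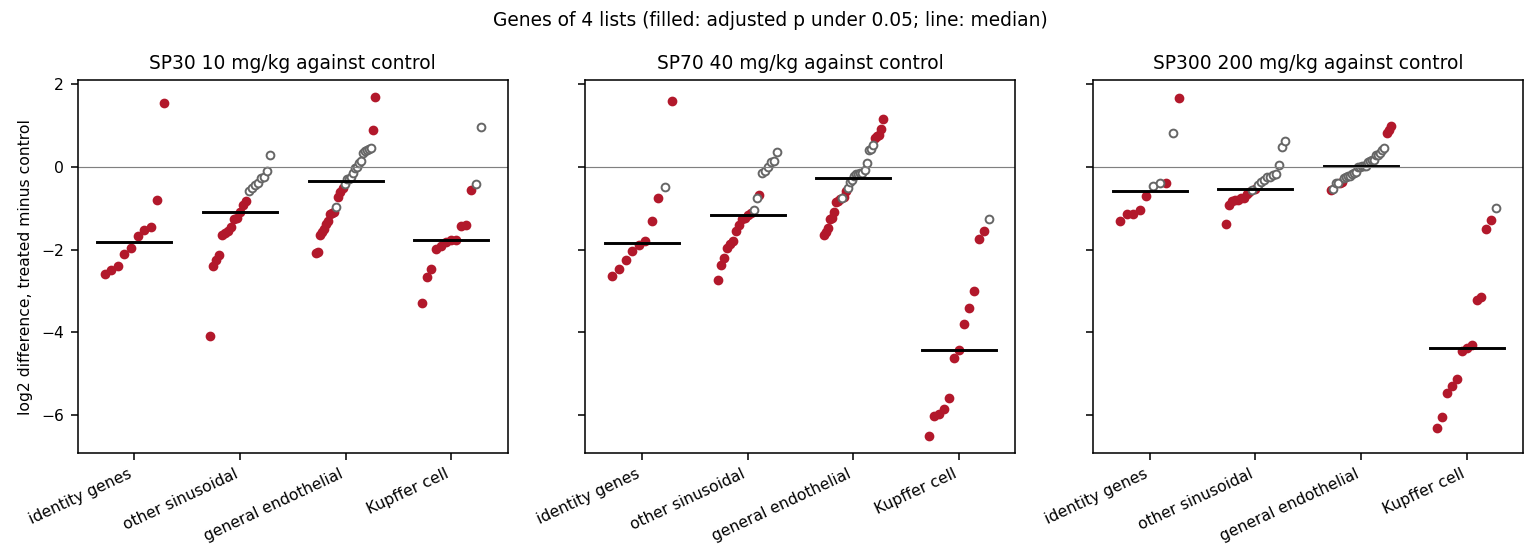
Differences against control on the log2(signal + 12.5) scale for the genes of 4 lists, in the 3 groups given a dose found toxic. Each point is a gene, filled where its adjusted p was under 0.05, and the line is the median. The medians of the 10 genes are -1.82 after SP30, -1.83 after SP70 at 40 mg/kg and -0.58 after SP300 at 200 mg/kg, and those of the Kupffer cell genes lie lower in the SP70 and SP300 groups. Their size there is set by the pseudocount, since 10 of the 13 genes had treated means under the filter there. With signals under the filter raised to it, which bounds them, the medians of the Kupffer cell genes are -1.63, -3.10 and -3.23, and those of the 10 genes -1.77, -1.85 and -0.58.

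In the pathways of Kdr and Tek, 12 VEGF and angiopoietin genes were tested of 16 listed. At 40 mg/kg of SP70 6 were lower and 2 higher (28.8% and 15.6% of all genes), and after SP30 6 were lower and 0 higher (31.3% and 18.0%). Among the receptors, Flt4, the VEGF-C receptor, was at -1.15 ± 0.16 and -1.55 ± 0.16 in these groups, Tie1, the partner of Tek, at least 1.45-fold and at least 1.51-fold lower with treated means under the filter, and the co-receptor Nrp1 at -0.50 ± 0.16 at 40 mg/kg of SP70, all passing. Nrp1 also fell after SP30 (adjusted p = 2.74e-06). Flt1, which binds VEGF as a decoy for Kdr, passed after SP30 (-0.71 ± 0.22) and missed at 40 mg/kg of SP70 (-0.37 ± 0.22, adjusted p = 0.188). Vegfa, the main ligand of Kdr, was at -0.46 ± 0.16, -0.79 ± 0.16 and 0.91 ± 0.16 at 10, 20 and 40 mg/kg of SP70, passing each time. It was at 0.15 ± 0.16 after SP30 (adjusted p = 0.473) and at -0.61 ± 0.16 after SP300 at 200 mg/kg (adjusted p = 0.00403). Angpt2, the ligand that can oppose Tek, rose by 0.93 ± 0.26 at 20 mg/kg and 0.92 ± 0.26 at 40 mg/kg of SP70, and Vegfb fell in the same groups (-0.42 ± 0.17 and -0.47 ± 0.17). Plcg1, a phospholipase activated by Kdr, fell after SP30 (-1.16 ± 0.18) and at 40 mg/kg of SP70 (-0.47 ± 0.18). In the 4 genes not tested, Pgf, Angpt1, Angpt4 and Svep1, no probe set passed the filter.

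Of 18 close relatives, 9 were lower and 5 higher at 40 mg/kg of SP70 (28.8% and 15.6% of all genes), and 7 lower and 4 higher after SP30 (31.3% and 18.0%), the counts after SP30 near the shares of all genes. Ehd1, a paralog of Ehd3, rose in every comparison with control but SP300 at 10 mg/kg, by 1.38 ± 0.10 after SP30 and 0.94 ± 0.10 at 40 mg/kg of SP70. Stab1, the paralog of Stab2, was lower, at -1.11 ± 0.14 at 40 mg/kg of SP70 and -0.83 ± 0.14 after SP30. Of the relatives of Sox17, Sox18 fell (-0.77 ± 0.25 and -1.37 ± 0.25 in the same groups), and Sox7 rose at 40 mg/kg of SP70 (0.77 ± 0.23). Among Fc receptors, Fcgr4 and Fcgr3 fell with SP70 at 40 mg/kg (at least 2.24-fold, its treated mean under the filter, and -0.64 ± 0.20) and were at 0.02 ± 0.25 and 0.14 ± 0.20 after SP30 (adjusted p = 0.952 and 0.612), where Fcgr2b was at -1.52 ± 0.21. Cd44, a hyaluronan receptor like Lyve1 that leukocytes carry, rose by 1.78 ± 0.18 after SP30 and 0.95 ± 0.18 at 40 mg/kg of SP70.

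Markers of the neighbouring Kupffer cells, the macrophages of the sinusoids, moved with the 10 genes in some comparisons and against them in others. Of 13, 11 were lower after SP30 (31.3% of all genes), 0 after 10 mg/kg of SP300 and 12 after 200 mg/kg of it (18.0%). At 10, 20 and 40 mg/kg of SP70, 10, 12 and 12 were lower (5.70%, 20.9% and 28.8%). Their summed signal was 12792 to 26290 after SP30, 49482 to 64114 after SP300 at 10 mg/kg and 8864 to 10643 at 200 mg/kg. Along the SP70 series it was 42432 to 61848 in control mice, 17851 to 33743 at 10 mg/kg, 9583 to 11981 at 20 mg/kg and 6215 to 10557 at 40 mg/kg. The mean signals of 10 of the 13, Clec4f, Vsig4 and Cd163 among them, lay under the filter after SP70 at 40 mg/kg and after SP300 at 200 mg/kg. At 40 mg/kg of SP70 the 5 with the smallest adjusted p were Csf1r (-2.99 ± 0.13), C1qc (at least 14.1-fold lower), Cd5l (at least 16.0-fold lower), Cd163 (at least 8.56-fold lower) and C1qa (at least 20.2-fold lower), the last 4 with treated means under the filter.

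The direct comparisons set these groups of genes side by side. Between SP30 and SP300 at 200 mg/kg, 12 Kupffer cell genes were higher and 1, the iron exporter Slc40a1, was lower, while 9 of the 10 sinusoidal genes were lower. Of all 12674 genes tested, 1476 were higher and 2223 lower there. Between SP30 and SP70 at 40 mg/kg, 11 Kupffer cell genes were higher and 0 sinusoidal genes passed, where 466 of all 12674 genes were higher and 257 lower. Between SP70 (40 mg/kg) and SP300 (200 mg/kg), 9 of the 10 sinusoidal genes were lower (median -1.20), where 1321 of all 12674 genes were lower and 639 higher. Of the 13 Kupffer cell genes, 0 passed. However, 10 of these 13 had mean signals under the filter in both groups, so a difference in them was not measurable. The part of Kupffer cells in the change of the 10 genes was not tested.

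**Figure D5:**
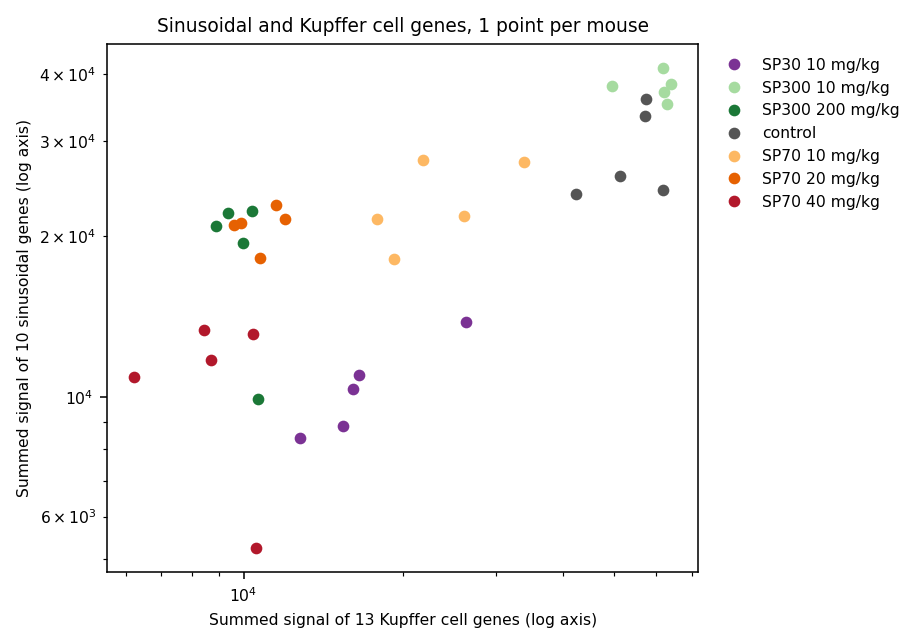
Summed signal of the 10 sinusoidal genes against the summed signal of 13 Kupffer cell genes, 1 point per mouse, both axes logarithmic. Mice given SP30 sit at 8411 to 13795 on the vertical axis with Kupffer sums of 12792 to 26290, and mice given SP300 at 200 mg/kg at 9922 to 22253 with Kupffer sums of 8864 to 10643.

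Other cell types were read from lists of their markers. Of 11 hepatocyte genes, 1 passed at 40 mg/kg of SP70 (Cps1, -0.14 ± 0.05) and 0 after SP30, where 28.8% and 31.3% of all genes were lower. After SP300 at 200 mg/kg 6 were lower (18.0% of all genes), with a median of -0.16. Of 12 stellate cell and fibroblast genes, 6 were lower at 40 mg/kg of SP70 and 7 after SP30 (28.8% and 31.3% of all genes). Those with the smallest adjusted p at 40 mg/kg were Colec11 (-2.24 ± 0.24), Hand2 (-1.93 ± 0.28), Lrat, which stores vitamin A (-1.55 ± 0.26), Reln and Pdgfrb (-0.56 ± 0.14). Of 11 leukocyte and platelet genes, 7 rose at 40 mg/kg of SP70, 8 after SP30 and 5 after SP300 at 200 mg/kg (15.6%, 18.0% and 12.6% of all genes). In the same groups 1, 1 and 0 were lower (28.8%, 31.3% and 18.0%). The rises at 40 mg/kg were led by the neutrophil proteins S100a8 (5.08 ± 0.23) and S100a9 (4.92 ± 0.25) and by Il1b (2.23 ± 0.18). Next came the platelet gene Ppbp (at least 3.57-fold higher) and Cxcr2 (at least 3.61-fold higher), whose control means lay under the filter. The leukocyte sum was 29976 to 67407 at 40 mg/kg of SP70 and 54531 to 73635 after SP30, against 3924 to 6419 in control mice. Both tested red cell genes were lower after SP300 at 200 mg/kg (18.0% of all genes), with a median of -0.87, and 0 passed in the other 5 groups. The part of these cells in the change of the 10 genes was not tested.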

How the data were processed

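RNA from 35 mouse livers, 1 per array, was measured on an array with 45101 probe sets. The values are intensity per probe set on a linear scale, as deposited by the authors and made with MAS5 per the submitters' processing notes. Its target scaling was not stated in the sources read, and no detection calls were used. No further scaling was applied. Control probe sets (64) were left out. Of the rest, 34945 carry 1 gene in the platform annotation. Probe sets with a signal above 165 (the overall median) on 5 or more arrays were kept (22654 with 1 gene), and each of 12674 genes was read from its kept probe set with the highest mean signal.

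The log2 of signal + 12.5 (the 10th percentile of all values) went into limma 3.58.1 (R 4.3.3), where all 35 arrays shared a group-means model moderated with an intensity trend. Tests were two-sided, with p-values adjusted by the Benjamini-Hochberg method within each comparison and a threshold of 0.05. The other probe sets of the 10 genes were tested in a separate fit, together with all probe sets that passed the filter. Their adjusted p is therefore not on the same footing as that of the genes. There were 6 comparisons with control, 10 between treated groups and a dose slope. Neighbouring groups outside these, in the order of levels, were set against each other in the same fit. The number of arrays limits the precision. The labels call the arrays biological replicates, so each counts as 1 mouse. The members and gene lists were chosen with earlier results of these data known.

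Named genes are the 10 members, the 10 genes that correlate most with their mean over the arrays, the 3 that correlate most with each member, up to 5 genes of each other list by adjusted p at 40 mg/kg of SP70, and any VEGF, angiopoietin or family relative described. Cdh5, Pecam1, Wnt2, Gata4, Rspo3, Wnt9b, Clec4f, Vsig4, Slc40a1 and Ms4a1 were named after their values were seen. Same-numbered mice were checked as pairs: their deviations from the group means correlated at -0.00065 on average (105 pairs), against 0.00016 for other pairs, so the number is no block. The alternatives were pseudocounts of 1 and 50, no filter, a filter on 15 arrays, quantile normalization, centring of arrays, 2 other probe set rules, the replicate number as a block, a fit of only the groups compared, and leaving out each mouse. Leaving out the pair of mice that stood apart was chosen after seeing the data. The fit was tested on simulated data.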

Additional observations from a re-analysis of the deposited data

Results flagged for a closer look

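Signals of the 10 genes in the 7 groups were searched for a mouse far from the other 4 of its group (Dixon's test at the 95% level). Chance alone would mark about 1 group in 20, and 4 of 70 were marked. In SP70 at 40 mg/kg, replicate 3 had a Ptprb signal of 619.8, where the other 4 mice had 896.1 to 995.5. In SP300 at 200 mg/kg, replicate 1 had an Fcgr2b signal of 1669, where the others had 3414 to 4018, and a Tek signal of 287.9, where the others had 614.1 to 711.1. These are the mice with the lowest summed signal of their groups. In the control group, replicate 5 had a Lyve1 signal of 2210.0, where the others had 461.6 to 944.2.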

How the results depend on the processing

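No difference of the 10 genes that had passed the test changed direction under an alternative. Among the values of the 10 genes under alternatives other than leaving out single mice, 1678 kept their side of the threshold, 11 lost and 11 gained a call. Differences that did not pass were counted as kept whatever their direction. With 1 mouse left out, 1740 kept their side in the same sense, 54 lost and 6 gained a call. The replicate number as a block changed 0 calls of the 10 genes, with 9 still past the test at 40 mg/kg of SP70 against control. Other changes were counts. Genes past the test after SP300 at 10 mg/kg against control were 148, but 87 with arrays centred, 45 in a fit of only the groups compared, and 72 to 164 with 1 mouse left out, with 0 or 1 of the 10 genes among them. Between SP70 at 20 and 10 mg/kg, 1 of the 10 passed, 2 with arrays centred or only the groups compared, and 0 to 2 with 1 mouse left out. Between SP70 at 40 and 20 mg/kg, 1455 of all genes passed, 851 with arrays centred, 914 without the pair of mice and 913 to 1670 with 1 left out. Between SP30 and SP70 at 40 mg/kg, 723 passed, 419 with only the groups compared, 439 without the pair and 426 to 847 with 1 left out; of the 10 genes, 0 passed, 1 with a pseudocount of 1 or without the pair, and 0 or 1 with 1 left out. Between SP70 (40 mg/kg) and SP300 (200 mg/kg), 1960 passed, 3019 with arrays centred, 1288 without the pair and 1463 to 1988 with 1 left out. Centring made 2543 of these lower and 476 higher, against 1321 and 639, and 503 lower and 348 higher between SP70 at 40 and 20 mg/kg, against 1101 and 354. Of 2616 between SP70 and SP300 at 10 mg/kg, 2082 to 2752 passed with 1 mouse left out, and of the 10 genes 4 to 8. The cause of these changes was not tested, apart from the smaller number of mice where mice were left out. Signals near 165, as for Sox17, are limited by the background of the array.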

Other observations

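Of 11 tested genes of larger vessels, 4 were higher and 2 lower at 40 mg/kg of SP70 (15.6% and 28.8% of all genes), and 4 higher and 3 lower after SP30 (18.0% and 31.3%). With only 11 genes, the counts of lower genes are not far from the shares of all genes and are not read as a result. The adhesion molecules of activated endothelium led: Selp, P-selectin, rose by 2.39 ± 0.23 at 40 mg/kg of SP70, 2.65 ± 0.23 after SP30 and 1.49 ± 0.23 after SP300 at 200 mg/kg, and so did Sele, E-selectin, whose control mean lay under the filter, at least 5.24-fold with 40 mg/kg of SP70 and at least 5.92-fold with SP30 (adjusted p = 6.8e-08 and 1.77e-08). The venular chemokine receptor Ackr1 rose by 1.14 ± 0.33 and the gap junction gene Gja4 by 0.95 ± 0.22 at 40 mg/kg. Nr2f2, a transcription factor of venous identity, fell by 1.38 on the log2 scale at 40 mg/kg of SP70 (adjusted p = 6.74e-09).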
